A study of Mus musculus with 12 samples.

Results

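The comparison described here sets the transcripts of dendritic cells (GM-DC) against those of macrophages (GM-MF) from mouse bone marrow cultures, both without lipopolysaccharide (LPS). It rests on 6 of the 12 expression arrays of the study, the 3 titled unstimulated dendritic cell and the 3 titled unstimulated macrophage, and on all 19938 genes of the table. Marrow from the leg bones of mice labelled C57B/6 was grown for 6 days with 20 ng/ml GM-CSF, and these 6 samples received no stimulus. The other 6 arrays hold the same cell types after 4 hours with 10 ng/ml LPS, a component of bacterial membranes that Toll-like receptor 4 recognises, and enter here only through the shared estimate of the spread and where the difference with LPS is set beside the difference without. No mouse carried a named transgene or deletion. How the dendritic cells and macrophages were separated from each other, and whether the 3 samples of a group came from separate mice or cultures, is not given in the sources used here, so the p-values reflect array-to-array variation within a group, part or all of which could be technical. Each sample is bulk RNA, in which fewer cells of a type and less RNA per cell cannot be told apart.

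GM-CSF (granulocyte-macrophage colony-stimulating factor) drives marrow progenitors into myeloid lineages, and cultures grown with it are a standard source of antigen-presenting cells. They are known to hold a mixture of cells. Dendritic cells take up antigen, move to lymph nodes through the chemokine receptor CCR7 and prime T cells, and in culture they can mature without an added stimulus. Macrophages depend on the receptor CSF1R, remain in tissue, and engulf and degrade particles, microbes and dying cells.

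Values are log2 expression as deposited, so that a difference of 1 is 2-fold. Each difference is GM-DC minus GM-MF, given as the estimate ± its standard error from limma (n = 3 arrays in either group), and a gene was called at a Benjamini-Hochberg adjusted p under 0.05. The median of all genes on the 6 arrays was 4.80, and the table holds no detection calls, so a low value is not read as absence and a fold against it is a ratio of signals. Across genes, Pearson's r was 0.993 to 0.996 between arrays of the same cell type and 0.916 to 0.928 between GM-DC and GM-MF arrays. The median standard error of a difference was 0.125, and the smallest difference called was 0.239 in size. Several of the genes with large differences belong to families of close copies (Ifit, Slfn, Gbp, Oas, Ly6 and Ms4a genes), for which probes that bind more than 1 member cannot be told apart here, so the values of single members are uncertain.

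Differences between the cell types were widespread. Of 19938 genes, 6827 (34.2%) were called, 3593 (18.0%) higher and 3234 (16.2%) lower in GM-DC, and the median fold of the called genes was 1.69. The balance depended on the scaling: 52.6% of the called genes were higher in GM-DC as deposited, 57.3% after quantile normalization and 48.7% after cyclic loess, where it turned. A difference of at least 2-fold was reached by 2533 genes (12.7%), 1134 (5.69%) higher and 1399 (7.02%) lower in GM-DC. The side of GM-MF was the heavier at larger folds: 152 genes were at least 16-fold lower in GM-DC and 47 at least 16-fold higher, and 12 against 4 reached 64-fold. Across all genes the median difference was -0.011, and 8856 genes (44.4%) had 3 values per group that did not overlap.

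**Figure D1:**
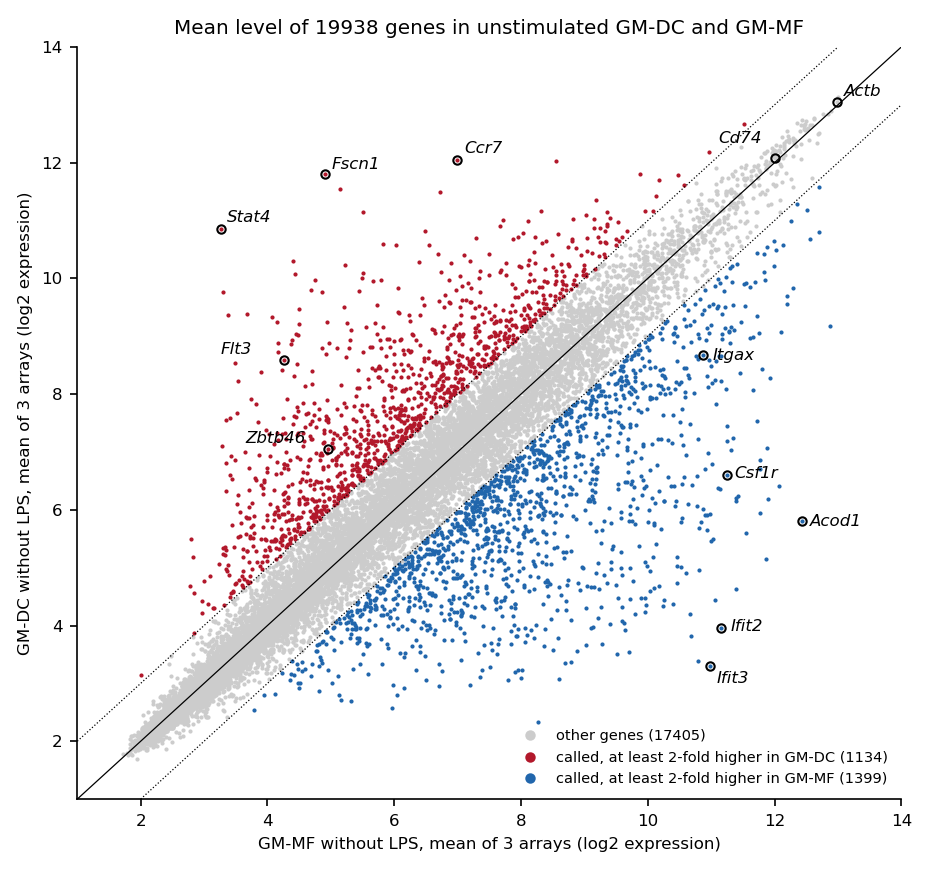
Mean level of each of 19938 genes in unstimulated GM-MF (x axis) and GM-DC (y axis), both the mean of 3 arrays in log2 expression; the solid line marks equal levels and the dotted lines a 2-fold difference. The 1134 genes in red and 1399 in blue were called at 2-fold or more, and the genes farthest from the line are Stat4 (difference 7.59) above it and Ifit3 (difference -7.68) below it.

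Stat4, which carries signals of the interleukin-12 and type I interferon receptors to the nucleus, showed the largest difference toward GM-DC. It read 10.82, 10.86 and 10.91 in the 3 GM-DC arrays and 3.17, 3.20 and 3.43 in the 3 GM-MF arrays, a difference of 7.59 ± 0.13 (193-fold, adjusted p = 6.37e-14). The GM-MF values lay below the median of all genes on every array, while the GM-DC values were far above it. Fscn1 encodes fascin, which bundles actin in the dendrites of mature cells. Its levels were 11.72, 11.64 and 12.03 in GM-DC and 4.37, 5.76 and 4.59 in GM-MF (6.89 ± 0.32). The second GM-MF array stood above the other 2 for Fscn1 but remained far under every GM-DC array.

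Further leaders in GM-DC encode receptor partners, adhesion proteins and actin regulators. Ramp3, an accessory protein of calcitonin-family receptors, read 11.47, 11.45 and 11.72 against 5.22, 5.01 and 5.22 (6.40 ± 0.21). Ceacam15, of a family of adhesion proteins, read 9.80, 9.74 and 9.76 against 3.12, 3.66 and 3.13 (6.46 ± 0.15), and Strip2, of a family of proteins that bind striatins, 9.37, 9.37 and 9.41 against 3.56, 3.86 and 3.63 (5.70 ± 0.14). The GM-DC arrays lay close together for each of these genes, and the groups did not overlap. Scin (5.98 ± 0.16) encodes scinderin, which severs actin filaments, and Mmp25 (5.64 ± 0.21) a metalloproteinase held in the cell membrane. Satb1, an organiser of chromatin loops known from T cells, read 9.12, 9.28 and 9.61 against 4.24, 3.91 and 4.05 (5.27 ± 0.18). Serpinb6b (5.90 ± 0.22), a protease inhibitor, Il2ra (5.64 ± 0.18), an interleukin-2 receptor chain, Sema7a (5.23 ± 0.13), a membrane-anchored semaphorin, and Nudt17 (5.11 ± 0.24), a nudix hydrolase, completed the 12.

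At the other end, 7 of the 12 genes that led in GM-MF belong to the list of antiviral effectors described further on (Ifit3, Rtp4, Ifit2, Samd9l, Ifit1, Slfn1 and Oasl2). Ifit3, which takes part in the block of viral RNA translation, read 3.08, 3.74 and 3.09 in GM-DC and 10.97, 10.98 and 10.99 in GM-MF (-7.68 ± 0.18, 205-fold, adjusted p = 3.22e-13). Rtp4 read 3.88, 3.12 and 3.14 against 10.75, 10.73 and 10.90 (-7.41 ± 0.21). The GM-MF arrays lay close together for both genes, the GM-DC arrays were more scattered, and the groups were far apart. Acod1, which makes itaconate from an intermediate of the Krebs cycle, read 5.32, 5.79 and 6.33 in GM-DC and 12.39, 12.51 and 12.42 in GM-MF (-6.62 ± 0.20). Ms4a6c, a membrane protein with 4 spans, read 3.75, 3.30 and 3.49 against 9.29, 9.47 and 9.80 (-6.0 ± 0.16). Saa3 (-6.75 ± 0.31), an acute phase protein, Clec4e (-6.72 ± 0.27), a lectin that binds mycobacterial glycolipid, Slfn1 (-6.46 ± 0.26), of the Schlafen family, and Ly6i (-6.17 ± 0.23), of the Ly6 family, were also among the 12.

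**Figure D2:**
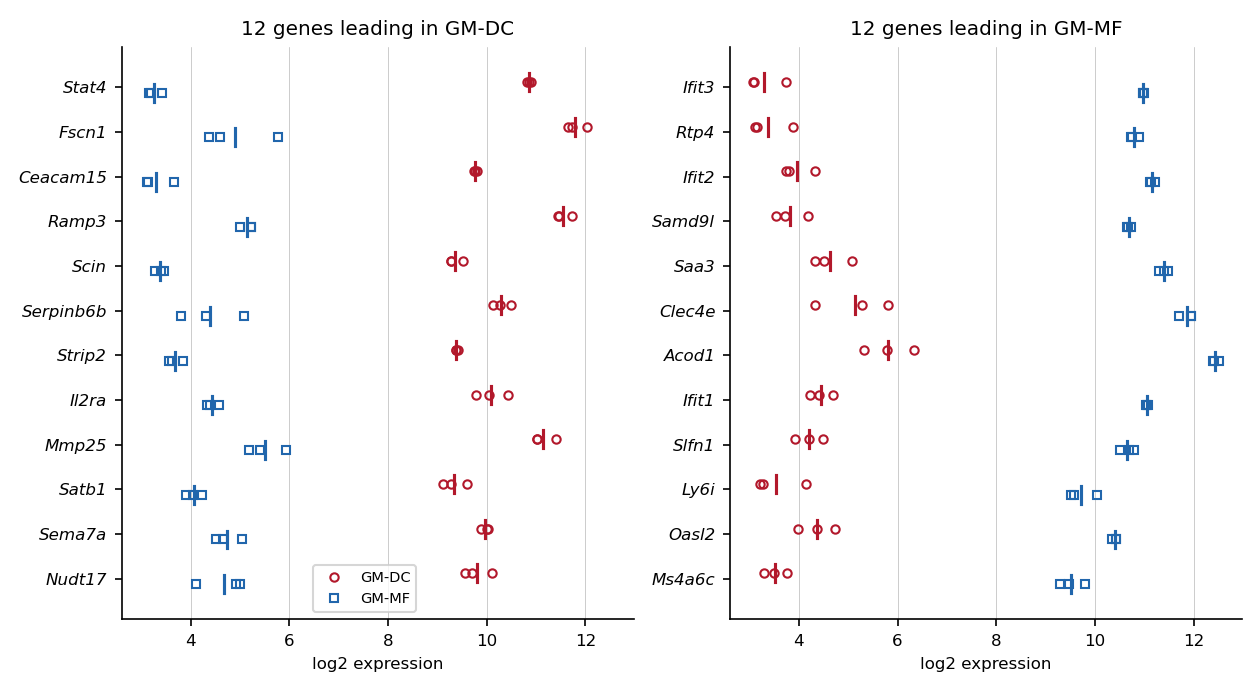
Log2 expression of the 12 genes with the largest difference in each direction, 1 point per array (circles GM-DC, squares GM-MF, 3 arrays each) with the group mean as a vertical line. For all 24 genes the 2 groups are apart, from 5.11 for Nudt17 to 7.59 for Stat4 on the left and from -6.0 for Ms4a6c to -7.68 for Ifit3 on the right.

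The labels were set beside defining markers. The marker lists were chosen with earlier results of these data known, so their counts are not an independent check of the labels. Counts of list members called, here and below, stand against 34.2% of all genes called, 18.0% higher and 16.2% lower in GM-DC. GM-DC exceeded GM-MF for 11 of 14 measured markers of dendritic cells, fell below it for 1, and 2 did not pass (median 3.13). For 13 of the 14 the values did not overlap between the groups, as for 44.4% of all genes. Flt3, a growth factor receptor of dendritic cell progenitors, read 8.69, 8.31 and 8.79 against 4.40, 3.99 and 4.38 (4.34 ± 0.15). Dpp4, the peptidase CD26, read 8.75, 8.86 and 8.96 against 4.18, 4.38 and 4.54 (4.49 ± 0.14). Both were under the all-gene median in GM-MF and well above it in GM-DC. Kit, the stem cell factor receptor, was 3.06 ± 0.21 higher and Batf3, a factor of cross-presenting dendritic cells, 2.20 ± 0.14 higher. Ccr7 (5.07 ± 0.26), Cd83 (4.33 ± 0.21) and Ccl22 (3.47 ± 0.23) were higher too, and each of them was read highest among the GM-MF arrays by the second (7.62, 7.09 and 9.25). That array was also the highest of the 3 for 43.3% of all genes and for 45.0% of the 200 genes leading in GM-DC.

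Some classical dendritic cell markers did not separate the groups in the labelled direction. Itgax, the integrin CD11c, read 9.02, 8.98 and 8.05 in GM-DC and 10.99, 10.90 and 10.74 in GM-MF and was lower in GM-DC (-2.20 ± 0.27, adjusted p = 7.25e-06). H2-Ab1, a chain of MHC class II, read 11.81, 11.80 and 11.80 against 12.06, 12.02 and 11.99 and did not pass (adjusted p = 0.0547), although it passed when genes with a mean under the median were left out (adjusted p = 0.0175). Cd74, the invariant chain of MHC class II, was at 12.08, 12.14 and 12.03 against 12.07, 11.97 and 11.99, and the groups overlapped. Both class II transcripts were near the top of the scale in both cell types. Macrophage markers were lower in GM-DC for 12 of the 13 measured, the other not passing (median -3.96). Csf1r read 6.70, 6.72 and 6.39 in GM-DC and 11.22, 11.16 and 11.35 in GM-MF (-4.64 ± 0.12). Adgre1, which encodes F4/80, read 5.89, 5.76 and 5.69 against 9.10, 8.90 and 9.28 (-3.31 ± 0.14). The 3 subunits of the complement component C1q, C1qa (-4.31 ± 0.16), C1qb (-4.53 ± 0.12) and C1qc (-4.29 ± 0.12), differed by nearly the same amount. Lyz2, lysozyme, read 8.69, 8.78 and 10.08 in GM-DC against 12.93, 12.78 and 12.90 (-3.68 ± 0.35), the third GM-DC array being the highest. Cd163, a haemoglobin scavenger receptor, was under the all-gene median in both groups, at 2.97 to 3.15 in GM-DC and 3.24 to 3.32 in GM-MF, and did not pass.

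Transcripts linked with the migratory, mature state of dendritic cells were mostly higher in GM-DC. They were higher for 25 of 28 measured genes and lower for 2, with 1 not passing (median 2.66, against -0.011 over all genes). The 2 that were lower were Ccl17 (-0.71 ± 0.17), a chemokine that draws T cells, and Cd40 (-0.63 ± 0.20), a receptor for T cell help. Cd40 read 8.80, 8.55 and 9.07 in GM-DC and 9.14, 9.99 and 9.16 in GM-MF, and it lost its call without the second GM-MF array (-0.35, adjusted p = 0.092), without the first GM-DC array (-0.62, adjusted p = 0.0509) and without the second (-0.50, adjusted p = 0.0992).

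Alveolar macrophages are lung cells that depend on GM-CSF. Their markers were lower in GM-DC for 10 of the 15 measured, with 5 not passing (median -1.21). Car4, a carbonic anhydrase, read 4.71, 5.19 and 4.81 in GM-DC and 10.82, 10.61 and 10.39 in GM-MF (-5.70 ± 0.19), and Bhlhe41, a transcription factor of these cells, 2.85, 3.35 and 3.93 against 8.95, 8.52 and 8.90 (-5.41 ± 0.24). The groups did not overlap for either gene. Fabp5, a fatty acid binding protein, lay at 11.77 to 11.88 in GM-DC and 11.73 to 11.80 in GM-MF and did not pass.

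Markers of other cells that marrow cultures can hold ranged from lists with no member called to monocyte markers, most of which were lower in GM-DC. Of 12 mast cell and basophil markers 12 did not pass limma, 2 of them had an unadjusted p under 0.05, 10 lay under the all-gene median in both groups, and after quantile normalization or cyclic loess 1 was called lower. Of 4 erythroid markers 4 did not pass, with 0 at an unadjusted p under 0.05, and all 4 lay under that median. Of 10 stromal markers only Lepr, the leptin receptor, passed (-2.01 ± 0.19), and 8 lay under that median. Of 16 neutrophil and granule markers 2 were higher, 6 lower and 8 did not pass, Prtn3 (2.03 ± 0.15), a granule protease, being higher and Mmp8 (-5.20 ± 0.31), a collagenase, lower. The part of cells with these markers in the other differences was not tested. Of 10 measured T and NK cell markers 3 were higher in GM-DC, 1 lower and 6 did not pass. Cd8a, a T cell coreceptor that some dendritic cells also carry, read 7.47, 7.30 and 7.70 in GM-DC and 4.07, 4.91 and 4.23 in GM-MF (3.09 ± 0.17). Thy1, another marker of this list, was higher too (1.30 ± 0.20). Cd3e, the T cell receptor component, was at 4.69 to 4.99 against 4.81 to 5.27 and did not pass. Plasmacytoid dendritic cell markers were higher for 2 of 8 measured and lower for 3, B cell markers for 1 and 1 of 9, and eosinophil markers for 1 and 2 of 7. Monocyte markers were lower in GM-DC for 6 of the 7 measured (median -2.81), among them Ms4a4c (-3.95 ± 0.16) and the clotting factor F13a1 (-2.81 ± 0.19).

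**Figure D3:**
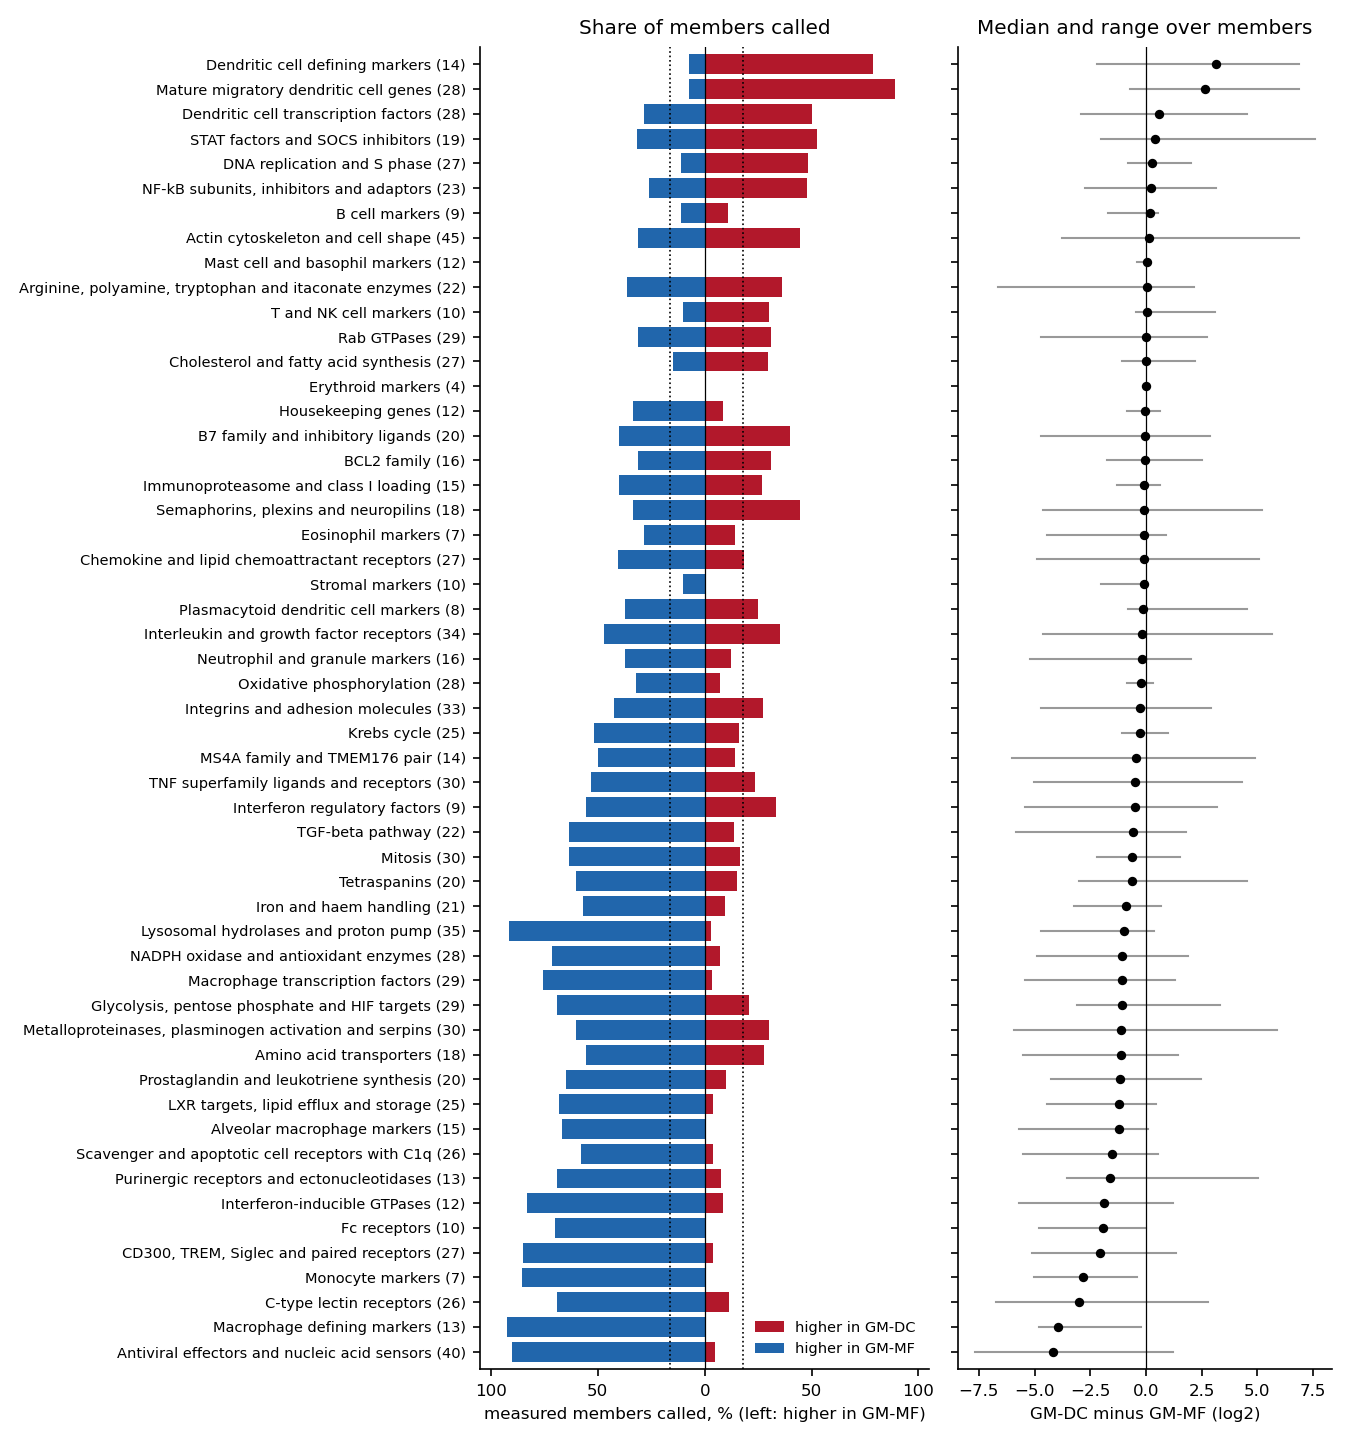
For 53 gene lists (number of measured members in brackets), the left panel gives the share of members called higher in GM-DC (red, to the right) and higher in GM-MF (blue, to the left), with dotted lines at the shares over all genes (18.0% and 16.2%). The right panel gives the median difference (point) and its range over members (line) in log2, from 3.13 for dendritic cell markers at the top to -4.16 for antiviral effectors at the bottom.

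Among 28 transcription factors of dendritic cells 14 passed as higher in GM-DC and 8 as lower, leaving 6 that did not (median 0.57). Spib, an ETS factor best known from plasmacytoid dendritic cells and B cells, read 8.90, 8.56 and 9.32 against 4.50, 4.48 and 4.21 (4.53 ± 0.23). Zeb1, a zinc finger repressor, read 7.85, 7.85 and 8.07 against 4.23, 4.50 and 4.19 (3.61 ± 0.15). The related repressor Zeb2, named after its values were seen, went the other way (-1.88). Irf4 read 8.96, 8.85 and 8.63 against 5.94, 5.64 and 5.26 (3.20 ± 0.21). Batf2 (-2.94 ± 0.18), an AP-1 factor, and Myc (-2.83 ± 0.16), a growth factor-induced regulator, were lower, whereas Id2 (0.24 ± 0.09, adjusted p = 0.0541), an inhibitor of helix-loop-helix factors, did not pass, but was called after quantile normalization (0.43, adjusted p = 0.000642).

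Among 29 measured macrophage factors 22 passed as lower in GM-DC and 1 as higher, leaving 6 that did not (median -1.07). Tfec, of the family that controls lysosomal genes, read 6.46, 6.52 and 6.24 in GM-DC and 9.99, 9.99 and 9.95 in GM-MF (-3.57 ± 0.13). Of the same family Mitf (-2.75), Tfe3 (-0.95) and Tfeb (-0.82), named after their values were seen, were lower in GM-DC as well. The 3 C/EBP factors of the list, Cebpb (-2.72), Cebpd (-2.12) and Cebpa (-2.03), and Spi1 (-1.58), which encodes PU.1, also named afterwards, were lower. Bhlhe40 (1.32 ± 0.15), the close relative of Bhlhe41, was the member that was higher. Klf6, at 10.82 to 10.96 against 10.76 to 10.84, did not pass.

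Components of cytokine signalling moved both ways. Among STAT factors, Janus kinases and their inhibitors 10 of 19 measured genes passed as higher in GM-DC, 6 as lower and 3 in neither direction (median 0.39). Socs2, which restrains growth hormone and GM-CSF signals, read 10.79, 10.70 and 10.86 against 8.02, 7.86 and 8.21 (2.75 ± 0.11). Stat2, a transducer of the interferon response, was at 8.16, 8.01 and 8.32 in GM-DC and 10.11, 10.20 and 10.18 in GM-MF (-2.0 ± 0.11). Cish (1.53) and Stat5a (1.12), on the GM-CSF pathway and named after their values were seen, were higher in GM-DC. Of 9 interferon regulatory factors 3 were higher, 5 lower and 1 did not pass. Irf8, a factor of dendritic cell fate, read 10.63, 10.57 and 10.93 against 7.85, 8.02 and 8.0 (2.75 ± 0.12). Irf7, the inducer of type I interferon genes, read 4.42, 4.89 and 4.65 against 10.05, 10.08 and 10.17 (-5.44 ± 0.16), so that the members of this small family ran from -5.44 to 3.20.

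In the NF-kB list 11 of 23 measured genes passed as higher in GM-DC, 6 as lower and 6 in neither direction (median 0.23). Map3k14, the kinase NIK that starts the alternative NF-kB pathway, read 8.76, 8.95 and 9.11 in GM-DC and 5.78, 5.96 and 5.58 in GM-MF (3.17 ± 0.19). Birc2, a ubiquitin ligase that restrains NIK, was 2.57 ± 0.14 higher. The subunits of that pathway, Relb (1.84) and Nfkb2 (1.41), with Rel (2.17) and Traf1 (2.06), all named after their values were seen, were higher as well. Ikbke (-2.76 ± 0.14), a kinase that acts on interferon regulatory factors, and Bcl3 (-1.05 ± 0.16), a nuclear IkB protein, were lower. The inhibitor Nfkbia was at 10.65, 10.54 and 10.71 against 10.43, 10.64 and 10.35 and did not pass.

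Surface receptors for soluble signals differed in kind. Of 27 measured receptors for chemokines and lipid attractants 5 were higher in GM-DC, 11 lower and 11 did not pass (median -0.09). Cxcr4, the receptor of CXCL12, read 11.05, 11.07 and 11.17 against 8.96, 9.11 and 8.98 (2.08 ± 0.12), and Ccr2, the receptor that draws monocytes out of marrow, 2.82, 3.30 and 3.17 against 8.07, 7.87 and 8.05 (-4.90 ± 0.13). Of 34 measured interleukin and growth factor receptors 12 were higher, 16 lower and 6 did not pass. Il1rap (-2.14 ± 0.17), the shared chain of the interleukin-1 family receptors, was lower, and Il7r, at 10.67 to 10.77 against 10.52 to 10.58, did not pass.

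The TNF superfamily held 30 measured genes, 7 of them higher in GM-DC, 16 lower and 7 not passing (median -0.48). Tnfrsf18, the receptor GITR, read 9.43, 9.43 and 9.66 against 5.27, 5.39 and 4.94 (4.31 ± 0.16), and Tnfrsf4, the receptor OX40, 8.64, 8.71 and 9.04 against 4.26, 5.22 and 5.08 (3.94 ± 0.23). Both are best known from activated and regulatory T cells. Tnf read 5.30, 5.35 and 6.71 in GM-DC and 10.78, 11.02 and 10.71 in GM-MF (-5.05 ± 0.27), the third GM-DC array being the highest of its group. Tnfrsf9, the receptor 4-1BB, lay at 11.42 to 11.53 in GM-DC and 11.45 to 11.48 in GM-MF, and the 95% interval of its difference fell within -0.25 to 0.25. Of 20 genes of the B7 family and of inhibitory ligands 8 were higher, 8 lower and 4 did not pass. Cd80 (2.86 ± 0.14), a ligand of CD28, and Cd200 (2.19 ± 0.11), an inhibitory ligand, were higher, while Cd200r4 (-4.70 ± 0.24), of the receptor family of CD200, and Lgals9 (-4.27 ± 0.20), galectin-9, were lower.

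Semaphorins, plexins and neuropilins, ligands and receptors known from axon guidance and from contacts of immune cells, were divided: 8 of 18 were higher, 6 lower and 4 did not pass (median -0.08). Sema7a read 10.01, 9.89 and 10.02 in GM-DC and 4.52, 5.05 and 4.67 in GM-MF, and Sema4f (2.53 ± 0.23) was higher too. Nrp1, a coreceptor of class 3 semaphorins and of VEGF, read 4.84, 4.70 and 4.35 against 9.32, 9.03 and 9.36 (-4.61 ± 0.25). Sema4d was lower (-2.88 ± 0.11), and with its probe sets averaged the difference was -1.66. Plxnc1 (2.26), the plexin that binds SEMA7A, named after its values were seen, was higher in GM-DC, on the same side as its ligand.

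Of 22 genes of the TGF-beta pathway 14 were lower in GM-DC, 3 higher and 5 did not pass (median -0.59). Tgfbi, a matrix protein induced by TGF-beta, read 5.77, 6.14 and 5.91 against 11.79, 11.85 and 11.68 (-5.83 ± 0.13), and Inhba, the subunit of activin A, 5.72, 5.95 and 6.39 against 10.88, 11.05 and 10.71 (-4.86 ± 0.15). Itgb8, the integrin chain that releases active TGF-beta, was higher (1.81 ± 0.26), as was Tgfb2 (1.38 ± 0.17). Smad2, a transducer of the pathway, lay at 8.15 to 8.23 against 8.10 to 8.31 and did not pass.

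Genes that interferons induce made up the list with the lowest median. Of 40 measured antiviral effectors and nucleic acid sensors 36 were lower in GM-DC, 2 were higher and 2 did not pass, and the median difference was -4.16. The members that were lower ran from Ifit3 down to Ifitm6 (-0.71), which was named after its values were seen. Ifitm1, a membrane protein that blocks viral entry, was higher in GM-DC, at 12.11, 12.10 and 12.37 against 10.65, 11.22 and 11.05 (1.22 ± 0.17). Bst2, tetherin, did not pass, at 11.14 to 11.49 against 11.39 to 11.66. The other member called higher, Sting1 (0.42 ± 0.15, adjusted p = 0.0466), overlapped between the groups and lost its call without any 1 of the first GM-DC, second GM-DC, first GM-MF or the third GM-MF array (adjusted p from 0.124 to 0.193).

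Interferon-inducible GTPases were lower in GM-DC for 10 of the 12 measured and higher for 1 (median -1.87). Gbp7 read 3.38, 4.51 and 3.88 against 9.50, 9.78 and 9.64 (-5.72 ± 0.27), and Irgm1, which acts on membranes that enclose microbes, 5.17, 5.55 and 4.37 against 10.58, 10.37 and 10.43 (-5.43 ± 0.23). Gbp8 was the member that was higher (1.24 ± 0.16). Immunoproteasome and class I loading genes, also known targets of interferon, were divided: 4 of 15 measured genes were higher in GM-DC, 6 lower and 5 did not pass, with a median of -0.07 and a range from -1.29 for H2-M3 to 0.65 for Tapbpl. The lower end depends on the probe set kept: Nlrc5 stood at -0.86, and at -1.54 with its 19 probe sets averaged. B2m, the light chain of class I, lay at 12.22 to 12.34 against 12.30 to 12.37.

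The promoters of the genes that led in each direction were read from RefSeq on build GRCm38.p6, as windows of 250 bases before and 50 after each start. Windows were available for 15563 of the 19938 genes, 19116 windows in all. The core of the interferon response element, GAAANNGAA on either strand, was found in 60 of 196 windows (30.6%, 95% Wilson interval 24.6 to 37.4) of the 200 genes leading in GM-MF. It was found in 14 of 206 windows (6.80%, 4.09 to 11.1) of the 200 leading in GM-DC and in 1498 of all 19116 (7.84%, 7.46 to 8.23). The share in GM-MF genes depended on how many were taken, being 47.8% (34.1 to 61.9) for the leading 50 and 18.1% (interval 15 to 21.6) for the leading 500, and in GM-DC genes 10.7% (5.0 to 21.5) and 6.11% (4.38 to 8.46). The NF-kB site GGANNTTCC was in 11.2% of the windows of GM-MF genes, 2.43% of those of GM-DC genes and 4.28% of all, and the AP-1 site TGANTCA in 14.3%, 3.88% and 6.88%. The ETS site GAGGAAGT was in 4.08%, 3.88% and 2.78%, and the C/EBP palindrome TTGCGCAA was found in 0 of the 196, 0 of the 206 and 0.230% of all. The lysosomal CLEAR core TCACGTGA was in 0.510%, 0.485% and 1.32%, while among the lysosomal genes described further on it was in 5 of 29 windows (17.2%, 7.60 to 34.5), those of Ctsa, Ctsd, Gla, Atp6v1a and Mcoln1. Matches of different motifs may overlap, a gene can have several windows, and a match is a stretch of letters, not a measured site.

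**Figure D4:**
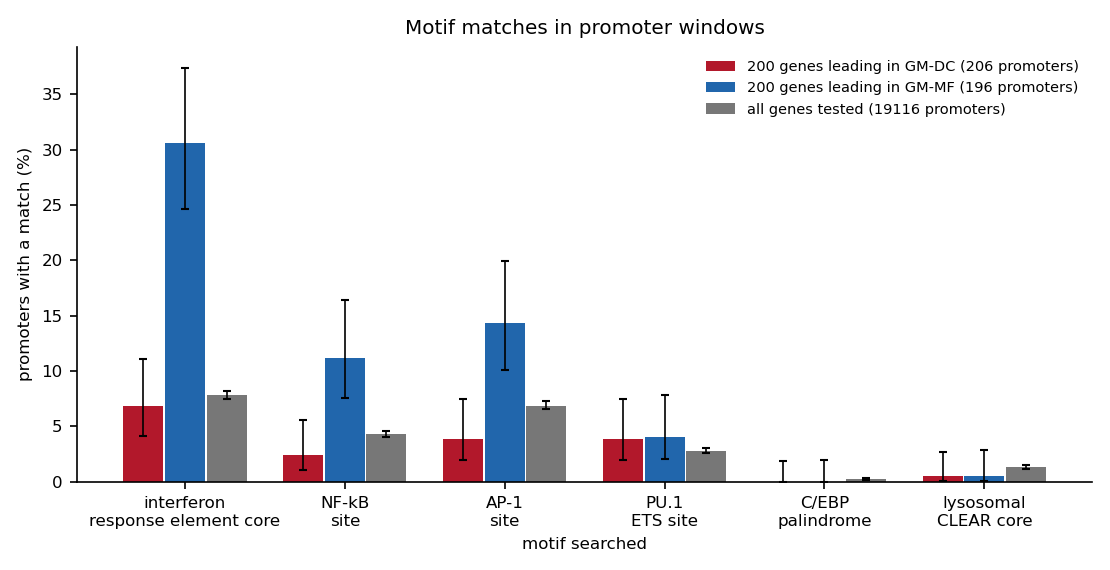
Share of promoter windows with at least 1 match of 6 motifs (y axis, %) for the 200 called genes leading in GM-DC (206 windows), the 200 leading in GM-MF (196 windows) and all genes tested (19116 windows), with 95% Wilson intervals as bars. The interferon response element core stands at 30.6% in genes of GM-MF against 6.80% in genes of GM-DC and 7.84% over all.

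The 250 bases before the start are printed for the gene with the largest difference in each direction and for Ifit2, whose window differs from that of its neighbour Ifit3, all 5′ to 3′ on the strand of the gene, with matches of the searched motifs in capitals. Ifit3 (chr19:34583279-34583528, plus strand) held 3 matches of the interferon element core, starting 155, 121 and 102 bases before the start, and an AP-1 match at 56. Ifit2 (chr19:34550444-34550693, plus strand) held an NF-kB match. Stat4 (chr1:52007990-52008239, plus strand) held 1 interferon element core 97 bases before its start, although its transcript is the one most in excess in GM-DC. Ifit2 and Stat4 each have 2 windows, and the window not printed held no match of the searched motifs.
Ifit3: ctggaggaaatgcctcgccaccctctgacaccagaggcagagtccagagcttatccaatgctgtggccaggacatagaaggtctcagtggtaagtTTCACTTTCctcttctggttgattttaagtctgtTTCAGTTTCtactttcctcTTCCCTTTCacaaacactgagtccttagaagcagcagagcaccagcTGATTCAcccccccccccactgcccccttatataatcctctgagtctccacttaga
Ifit2: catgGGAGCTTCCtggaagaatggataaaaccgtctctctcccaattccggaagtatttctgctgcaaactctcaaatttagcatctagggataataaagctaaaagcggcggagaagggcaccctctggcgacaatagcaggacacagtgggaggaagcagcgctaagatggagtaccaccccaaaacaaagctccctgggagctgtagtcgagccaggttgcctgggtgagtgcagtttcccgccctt
Stat4: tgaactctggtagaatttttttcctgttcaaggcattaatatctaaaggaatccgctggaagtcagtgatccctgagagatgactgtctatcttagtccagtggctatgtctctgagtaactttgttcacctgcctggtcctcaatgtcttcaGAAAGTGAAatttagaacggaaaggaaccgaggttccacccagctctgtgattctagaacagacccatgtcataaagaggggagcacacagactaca

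Satb1, the other leading GM-DC gene with a match, held it in 1 of its 5 windows, after the start, and is not printed. Shorter stretches, chosen after the values were seen, show the other leading GM-MF genes with a match before the start, with the first matched letters in capitals. They are the interferon element cores of Ifit1 (chr19:34640764-34640804, plus strand), Saa3 (chr7:46715777-46715817, minus strand) and Ms4a6c (chr19:11469219-11469259, plus strand) and the NF-kB match of Acod1 (chr14:103046911-103046951, plus strand). The first matched base lies 109, 125, 133 and 85 bases before the start of these genes.
Ifit1: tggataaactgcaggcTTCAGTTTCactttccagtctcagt
Saa3: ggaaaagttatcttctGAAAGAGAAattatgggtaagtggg
Ms4a6c: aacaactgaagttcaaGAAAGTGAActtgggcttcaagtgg
Acod1: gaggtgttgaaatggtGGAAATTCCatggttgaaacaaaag

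Receptors for uptake and for microbial patterns were mostly lower in GM-DC. Of 26 C-type lectin receptors 18 were lower, 3 higher and 5 did not pass (median -2.99). Clec4d, which pairs with CLEC4E, read 5.61, 6.28 and 6.56 against 11.46, 11.22 and 11.51 (-5.25 ± 0.22). Clec2i, a ligand of NK cell receptors, was higher, at 10.12, 9.93 and 9.73 against 7.12, 7.45 and 6.91 (2.77 ± 0.15). Fc receptors were lower for 7 of the 10 measured (median -1.94), with Fcgr1, the high-affinity receptor for IgG, at 4.42, 4.91 and 4.76 against 9.36, 9.54 and 9.61 (-4.81 ± 0.13) and the inhibitory Fcgr2b at -3.01 ± 0.21. Of 26 genes in the list of scavenger and apoptotic cell receptors with C1q 15 were lower, 1 higher and 10 did not pass. C1qb, also counted among the macrophage markers, is among those lower. Msr1, the class A scavenger receptor, read 5.43, 5.61 and 5.42 against 11.15, 10.82 and 11.13 (-5.55 ± 0.12), and Mfge8, a bridge to dying cells, was 0.55 ± 0.12 higher in GM-DC. Of 27 measured CD300, TREM, Siglec and other paired receptors 23 were lower, 1 higher and 3 did not pass (median -2.06). Within the PILR pair both the inhibitory Pilra (-5.10 ± 0.13) and the activating Pilrb1 (-4.44 ± 0.19) were lower, and Siglecg (1.36 ± 0.16) was the member that was higher.

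Families of 4-span membrane proteins held members with opposite differences. Of 14 genes of the MS4A family and the TMEM176 pair 7 were lower in GM-DC, 2 higher and 5 did not pass. The 2 that were higher were the neighbours Tmem176a, at 9.72, 9.64 and 9.94 against 4.65, 5.01 and 4.91 (4.91 ± 0.14), and Tmem176b, at 10.60, 10.55 and 10.65 against 5.63, 5.95 and 5.89 (4.77 ± 0.17). Ms4a6d was lower by much the same as Ms4a6c (-5.81 ± 0.18). Ms4a4a varied within the groups more than between them, from 6.89 to 7.76 in GM-DC and from 6.83 to 7.90 in GM-MF. Of 20 tetraspanins 12 were lower, 3 higher and 5 did not pass: Tspan13 read 10.54, 10.54 and 10.64 against 5.76, 6.16 and 6.19 (4.54 ± 0.15), and Cd53 9.04, 9.25 and 8.94 against 12.13, 11.99 and 12.20 (-3.03 ± 0.14).

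Adhesion, shape and traffic genes were divided. Of 33 measured integrins and adhesion molecules 9 were higher in GM-DC, 14 lower and 10 did not pass. L1cam, an adhesion molecule of neurons that dendritic cells use to cross endothelium, read 7.76, 7.77 and 7.72 against 4.74, 4.89 and 4.82 (2.94 ± 0.12), while Itgal (-3.62 ± 0.19), of LFA-1, and Itgam (-4.71 ± 0.17), of Mac-1, were lower. Of 45 measured genes of the actin cytoskeleton 20 were higher, 14 lower and 11 did not pass (median 0.12). Myo1f, a myosin of immune cells, read 6.67, 6.66 and 6.37 against 10.30, 10.32 and 10.35 (-3.76 ± 0.13), and Rhob, a small GTPase of endosomes, was also lower (-2.84 ± 0.21). Of 29 Rab GTPases, switches of vesicle traffic, 9 were higher, 9 lower and 11 did not pass. Rab27a, which docks secretory lysosomes, read 6.56, 6.68 and 6.95 against 3.95, 4.15 and 3.86 (2.74 ± 0.14), and Rab7b, of late endosomes, 3.75, 3.65 and 3.53 against 8.63, 8.18 and 8.31 (-4.73 ± 0.12).

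Lysosomal genes were nearly uniform in direction and smaller in size. Of 35 measured hydrolases and proton pump subunits 32 were lower in GM-DC, 1 was higher and 2 did not pass, with a median of -1.0. Cd68, a membrane protein of lysosomes, read 8.38, 8.51 and 8.39 against 11.83, 11.75 and 11.81 (-3.37 ± 0.10). Cst3, cystatin C, an inhibitor of lysosomal proteases, was the member that was higher, at 12.57, 12.56 and 12.51 against 12.19, 12.23 and 12.15 (0.36 ± 0.08). Of 30 measured metalloproteinases, plasminogen activators and serpins 18 were lower, 9 higher and 3 did not pass. Serpinb2, an inhibitor of plasminogen activators, read 4.58, 5.39 and 6.82 in GM-DC and 11.43, 11.46 and 11.74 in GM-MF (-5.95 ± 0.41), the GM-DC arrays lying far apart. Without the third GM-DC array its difference was -6.56.

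More genes of the replication list were higher than lower in GM-DC, and more genes of the mitosis list were lower than higher. Of 27 measured genes of DNA replication and S phase 13 were higher in GM-DC, 3 lower and 11 did not pass (median 0.27). Mcm6, a subunit of the replicative helicase, read 8.41, 8.42 and 8.20 against 6.52, 6.12 and 6.25 (2.05 ± 0.15), and Tk1, which makes thymidine phosphate, 9.13, 9.17 and 9.27 against 7.22, 7.62 and 7.12 (1.87 ± 0.15), or 1.32 with its probe sets averaged. Pcna, the sliding clamp, was lower, at 10.50, 10.50 and 10.36 against 11.29, 11.20 and 11.26 (-0.80 ± 0.09). Of 30 measured genes of the mitosis list, which also holds cyclins of G1, 19 were lower, 5 higher and 6 did not pass (median -0.62). Mki67, the proliferation marker, read 4.50, 4.21 and 4.34 against 6.59, 6.41 and 6.68 (-2.21 ± 0.15), and Ccnb2, a mitotic cyclin, was lower by a like amount (-1.97 ± 0.16). The members that were higher included Ccnd2 (1.54 ± 0.18), a cyclin of G1, and Cenpa (1.17 ± 0.15), the histone variant of centromeres, which read 8.90, 8.85 and 9.13 against 7.82, 7.78 and 7.79. Also higher were the cyclin kinase inhibitors Cdkn1b (1.15) and Cdkn2c (0.96), named after their values were seen, whose function is to halt the cycle. Of 16 measured BCL2 family genes 5 were higher, 5 lower and 6 did not pass, with the death promoter Bmf (2.52 ± 0.17) higher and Bcl2, a survival factor, lower (-1.40 ± 0.11).

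Lipid genes fell into lists that behaved differently. Of 27 measured genes of cholesterol and fatty acid synthesis 8 were higher in GM-DC, 4 lower and 15 did not pass (median 0.02). The share called was 44.4%, against 34.2% of all genes. Idi1, an isomerase of the mevalonate pathway, read 10.36, 10.30 and 10.58 against 8.65, 8.22 and 8.62 (1.92 ± 0.12), Pmvk of the same pathway was 2.21 ± 0.14 higher, and Insig1, a brake on the pathway, was lower (-0.77 ± 0.14). Of 25 measured LXR targets and genes of lipid efflux and storage 17 were lower, 1 higher and 7 did not pass (median -1.21). Ch25h, which makes 25-hydroxycholesterol, read 4.85, 4.61 and 4.51 against 8.93, 9.21 and 9.17 (-4.44 ± 0.19), and Pltp, a phospholipid carrier, was lower (-3.83 ± 0.14).

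Genes of sugar metabolism were mostly lower in GM-DC. Of 29 measured genes of glycolysis, the pentose phosphate pathway and HIF targets 20 were lower in GM-DC, 6 higher and 3 did not pass (median -1.07). Eno3, the muscle form of enolase, read 9.50, 9.28 and 9.42 against 6.22, 6.14 and 5.85 (3.33 ± 0.12), and Pfkfb3, which makes an activator of glycolysis, 10.70, 10.59 and 10.84 against 7.90, 8.98 and 7.76 (2.49 ± 0.24). Slc2a6, a hexose carrier, read 7.05, 7.12 and 7.50 against 10.20, 10.51 and 9.92 (-2.99 ± 0.16). Hk2, hexokinase 2, was lower (-3.11 ± 0.28), with the second GM-MF array at 8.21 and the other 2 at 7.09 and 6.94. Of 25 measured Krebs cycle genes 4 were higher, 13 lower and 8 did not pass, and of 28 measured oxidative phosphorylation genes 2 were higher, 9 lower and 17 did not pass, with no called difference above 0.87 in size, that of Cycs (-0.87 ± 0.11), cytochrome c. The share of oxidative phosphorylation genes called was 39.3%, against 34.2% of all genes, which include many of low signal. Mean levels of this list were 9.79 to 10.04, far above the all-gene median of 4.80, so these shares do not compare like genes.

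Enzymes and carriers of amino acids, iron and lipid mediators held several of the larger differences. Of 22 measured enzymes of arginine, polyamine, tryptophan and itaconate metabolism 8 were higher, 8 lower and 6 did not pass. Arg1, arginase, read 4.31, 4.40 and 4.69 against 9.42, 9.27 and 9.91 (-5.07 ± 0.20), while Ido1, which degrades tryptophan, read 5.64, 5.53 and 6.38 against 3.87, 3.69 and 3.59 (2.14 ± 0.21). These 2 enzymes were thus on opposite sides. Of 18 amino acid transporters 5 were higher, 10 lower and 3 did not pass (median -1.14). Slc7a2, a carrier of arginine, read 5.68, 5.92 and 5.75 against 10.47, 10.77 and 10.34 (-4.74 ± 0.14), and Slc7a8, a carrier of neutral amino acids, was lower too (-5.52 ± 0.14), whereas Slc7a7, which exports cationic amino acids, was higher (1.42 ± 0.12). Of 21 measured iron and haem genes 12 were lower, 2 higher and 7 did not pass. The exporter Slc40a1, ferroportin, read 3.53, 4.02 and 4.05 against 7.24, 6.68 and 7.37 (-3.23 ± 0.18), and the importer Tfrc, the transferrin receptor, 4.30, 4.15 and 4.23 against 7.15, 6.91 and 6.76 (-2.71 ± 0.12), while the storage chain Fth1 did not pass.

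Of 28 measured NADPH oxidase and antioxidant genes 20 were lower in GM-DC, 2 higher and 6 did not pass (median -1.06). Cybb, the catalytic subunit of the phagocyte oxidase, read 6.54, 6.63 and 7.41 against 11.83, 11.70 and 11.75 (-4.91 ± 0.18), and Gsto1, a glutathione transferase, was higher (1.87 ± 0.11). Of 20 measured genes of prostaglandin and leukotriene synthesis 13 were lower, 2 higher and 5 did not pass (median -1.18). Ptgr1, which inactivates these mediators, read 6.78, 7.11 and 7.20 against 11.37, 11.19 and 11.37 (-4.29 ± 0.17), and Tbxas1, thromboxane synthase, was lower (-3.67 ± 0.18), while Ptger4, a receptor of prostaglandin E2, was higher (1.93 ± 0.12). Of 13 measured purinergic receptors and ectonucleotidases 9 were lower, 1 higher and 3 did not pass (median -1.60). P2rx7, the ATP-gated channel that triggers release of interleukin-1, read 4.22, 4.46 and 4.42 against 8.0, 7.60 and 8.11 (-3.54 ± 0.16), and P2ry10, a lysophosphatidylserine receptor, 8.49, 8.54 and 8.59 against 4.04, 3.17 and 3.26 (5.05 ± 0.23).

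Some abundant genes showed no difference beyond a narrow margin. They were chosen by that margin, so their closeness is not a measure of the precision. The 6 list genes with the highest level whose 95% interval lay within -0.25 to 0.25 were Actb, Eef1a1, B2m, Vim, Cox4i1 and Tnfrsf9. Actb, beta-actin, read 13.08, 12.99 and 13.08 against 12.98, 13.01 and 12.97, and Eef1a1, a translation factor, 12.84, 12.84 and 12.83 against 12.83, 12.85 and 12.84. For Vim, vimentin, the difference was 0.06 ± 0.09. Of 12 measured housekeeping genes 1 passed as higher in GM-DC and 4 as lower (41.7% called, against 34.2% of all genes), Polr2a (0.62 ± 0.10), an RNA polymerase subunit, being higher and Gusb (-0.86 ± 0.12), a lysosomal enzyme, lower.

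The difference between the cell types was also set against the same difference in the 6 arrays with LPS. The change between the 2 conditions (the interaction) was called for 1514 of all genes (7.59%). Among the 2533 genes that were at least 2-fold apart without LPS it was called for 686 (27.1%), 256 of them higher in GM-DC and 430 higher in GM-MF without LPS. With LPS the difference was smaller for 495 and larger for 191. These genes were chosen for a large difference without LPS, which by itself favours a smaller one in other arrays.

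Many antiviral genes differed by less with LPS. The median difference of the antiviral list was -4.16 without LPS and -1.91 with it. The interaction was called for 28 of its 40 measured genes, against 7.59% of all genes and 27.1% of those at least 2-fold apart. The median of the interferon-inducible GTPases did not narrow (-1.87 without and -2.08 with LPS, interaction called for 9 of 12), but members went both ways. Irgm1 narrowed from -5.43 to -1.87 and Gbp7 from -5.72 to -4.22 (adjusted p of the interaction 7.89e-06 and 0.0264). Mx1, the member that did not pass without LPS (-0.21), stood at -0.86 with it (adjusted p of the interaction 0.00483). Xaf1, an interferon-induced promoter of cell death, read 5.05, 5.32 and 4.61 in GM-DC and 9.64, 9.76 and 9.76 in GM-MF without LPS, and with LPS its mean was 9.21 ± 0.21 and 10.09 ± 0.11 (SD, n = 3), so that the difference went from -4.73 to -0.89 (adjusted p of the interaction 1.51e-07). For Stat2 the difference went from -2.0 to -0.11 (adjusted p = 3.63e-06) and for Irf7 from -5.44 to -2.93. Ifit1 kept a difference of -2.65 with LPS. Myc narrowed as well: its mean in GM-MF was 8.25 without and 6.36 ± 0.28 with LPS, in GM-DC 5.43 and 6.30 ± 0.09, and the difference went from -2.83 to -0.07 (adjusted p = 3.67e-06).

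Other genes had a wider difference with LPS or one that turned. Cxcr4 went from 2.08 to 3.76 (adjusted p = 1.41e-05), Ptger4 from 1.93 to 3.56 and Slc7a6, an amino acid exchanger, from 1.27 to 3.43. Ch25h went from -4.44 to -6.62 and Lcn2, which binds bacterial siderophores, from -1.53 to -3.68 (adjusted p = 4.36e-06). Il6 was higher in GM-DC without LPS, at 7.57, 7.48 and 8.20 against 5.57, 6.88 and 5.57 (1.74 ± 0.29), and lower with LPS (-2.49, adjusted p of the interaction 1.26e-05). Cd81, a tetraspanin, was lower without LPS (-1.89), and with LPS its difference of 0.32 did not pass (adjusted p = 0.0818). Ccnd1, a G1 cyclin, did not pass without LPS (-0.46, adjusted p = 0.0988) and stood at 2.14 with it. Ccr7 remained higher in GM-DC, from 5.07 to 2.55, as its mean in GM-MF went from 6.99 to 9.45 ± 0.58 (SD, n = 3), against 12.05 in GM-DC without LPS. The interaction was called for 4 of the 14 dendritic cell markers and 3 of the 13 macrophage markers, against 7.59% of all genes. Most of these markers were at least 2-fold apart without LPS, and among all such genes the share was 27.1%, near that of the markers. Of the markers, Kit went from 3.06 to 0.87 (adjusted p = 0.000208), C1qa from -4.31 to -3.10 (adjusted p = 0.00264), Adgre1 from -3.31 to -2.35 (adjusted p = 0.00559) and Csf1r from -4.64 to -5.33 (adjusted p = 0.0241). Other lineage genes, Flt3 (4.34 and 4.49), Zbtb46 (2.11 and 2.07), Itgam (-4.71 and -4.78) and Mertk (-3.37 and -3.35) gave like values without and with LPS, and their interactions did not pass (adjusted p from 0.82 to 0.982).

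**Figure D5:**
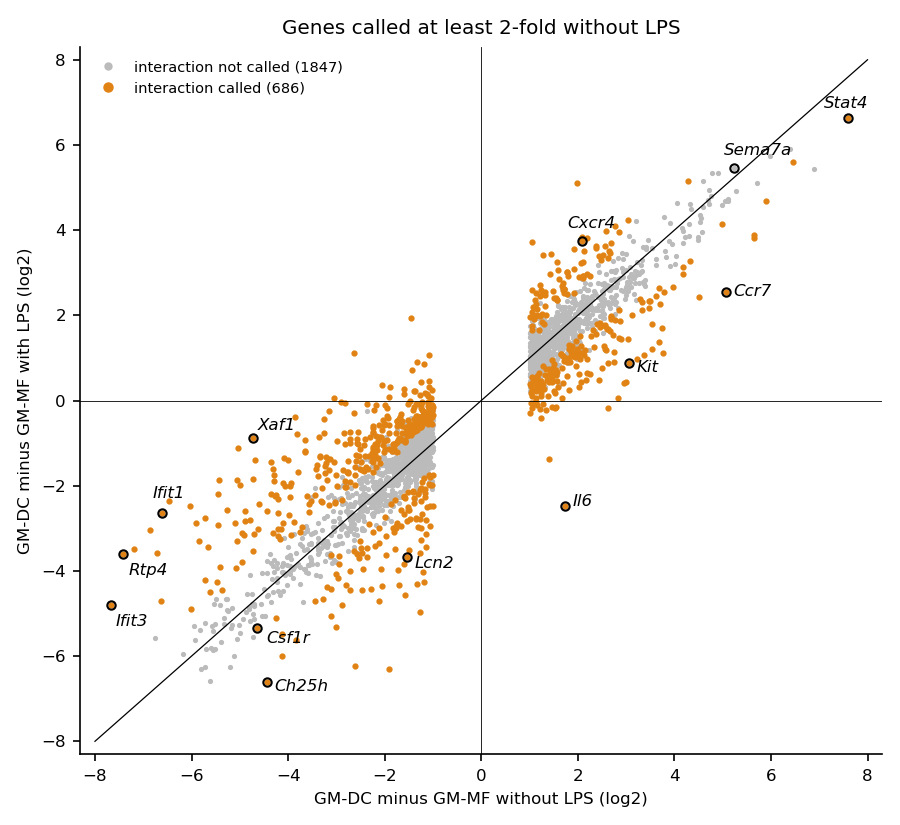
GM-DC minus GM-MF without LPS (x axis) and with LPS (y axis), both in log2, for the 2533 genes called at 2-fold or more without LPS, with the line of equal differences. The 686 genes in orange have a called interaction; Xaf1 (-4.73 and -0.89) and Il6 (1.74 and -2.49) lie far from the line, and Sema7a (5.23 and 5.46) lies near it.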

How the data were processed

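Total RNA of 12 samples was measured on Affymetrix GeneChip Mouse Gene 1.0 arrays, 3 per group. The deposited table holds log2 expression per probe set. The submitters' processing notes name RMA and R 3.0.2. The log base was taken from the range of the values (1.18 to 13.7) and is not stated. The handling of probes that bind several genes and the summary level are not given in the sources used here, and raw scanner files were not used here. The number of arrays limits the precision.

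The table has 35556 probe sets, of which 21789 carry a single gene symbol, 1621 more than 1 symbol and 12146 no symbol. For 999 genes with several probe sets the one with the highest mean was kept, which left 19938 genes. Group means of all 12 arrays were fitted with limma 3.58.1 in R 4.3.3 (8 residual degrees of freedom, eBayes), with Benjamini-Hochberg adjustment across all genes. The contrast was GM-DC minus GM-MF without LPS, and the interaction was that contrast minus the same one with LPS. The fit was tested on simulated data. No filter on low values was used.

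The members and the 53 gene lists (1025 of 1116 distinct genes measured, 81 in more than 1 list) were chosen with earlier results of these data known. Named genes were the 12 largest called differences in each direction, up to 4 called members per list and 1 that did not pass, all defining markers, the 6 largest called interactions and 6 genes with an interval within -0.25 to 0.25. Promoter shares have 95% Wilson intervals. Alternatives were another fit, scaling, filter, probe set rule, threshold, a replicate block and leaving out each array.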

Additional observations from a re-analysis of the deposited data

Results flagged for a closer look

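For 6 genes the difference between the cell types was not the same without and with LPS, by the limma interaction adjusted over all genes, and these were the largest such changes among genes called at 2-fold or more. Il6, an inflammatory cytokine, had the largest: the difference without LPS minus that with LPS was 4.23 ± 0.41 (adjusted p = 1.26e-05), and the sign turned from 1.74 to -2.49. With LPS its mean was 9.73 ± 0.26 in GM-DC and 12.22 ± 0.18 in GM-MF (SD, n = 3). The second GM-MF array read 6.88 without LPS and the other 2 read 5.57. The other 5 genes were lower in GM-DC in both conditions, by less with LPS. The change was -4.10 for Slfn1 (adjusted p = 5.32e-06), -3.97 for Ifit1 (adjusted p = 1.51e-07), -3.94 for Ifi207 (adjusted p = 1.51e-07), -3.84 for Xaf1 (adjusted p = 1.51e-07) and -3.83 for Samd9l (adjusted p = 2.09e-07). Ifi207 read 5.96, 6.25 and 5.6 in GM-DC and 11.05, 10.76 and 11.11 in GM-MF without LPS, and its difference went from -5.04 to -1.10. All 5 are interferon-induced.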

How the results depend on the processing

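Requiring a difference beyond 2-fold in the test itself (limma's treat at a log2 of 1) left 656 genes higher in GM-DC and 897 higher in GM-MF, against 1134 and 1399. The interaction held for 862 genes at an adjusted p under 0.01, against 1514. Leaving out each of the 6 arrays in turn gave 6197 to 6479 genes called, 3226 to 3370 of them higher in GM-DC and 2966 to 3139 higher in GM-MF, with 1108 to 1186 and 1354 to 1436 at 2-fold or more, and 1204 to 1528 interactions. The other settings gave 5520 to 7215 called genes. Deviations of same-numbered arrays of the 2 cell types correlated at 0.0117, -0.168 and -0.0412, against -0.13 to 0.146 for other pairs. With 3 arrays per group these correlations cannot settle whether the numbers pair the samples. With a replicate block 7011 genes and 1652 interactions were called, against 6827 and 1514 without it. Among 255 named genes, between 0 and 10 lost their call and between 0 and 13 gained one per setting, and 0 changed sign. Sema4d went from -2.88 to -1.66 and Nlrc5 from -0.86 to -1.54 with probe sets averaged; among all called genes, 2 were then called the opposite way. Between 0 and 5 list medians changed sign per setting, each of them 0.199 or less in size as deposited. That of semaphorins (-0.08) did so after quantile normalization, with low genes left out and without the second GM-MF array, and that of cholesterol and fatty acid synthesis (0.02) in 5 settings. Leaving out genes with a mean under the median moved 25 of 52 list medians by more than the spread between arrays (1 SD of the list's median level). Low signals limit what can be said of genes near the bottom of the scale.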

Other observations

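Genes of microRNAs, which were in none of the lists and were looked at after values were seen, gave 24 called of 296 measured (8.11%, against 34.2% of all genes), 15 higher and 9 lower in GM-DC. The probe sets are named for the hairpin gene, the median level was 3.21, under the all-gene median of 4.80, and mature microRNAs were not measured. Of these genes 3 differed by 2-fold or more. Mir155, whose host transcript is known to rise on activation of myeloid cells, read 7.85, 7.45 and 7.42 in GM-DC and 6.16, 6.16 and 5.91 in GM-MF (1.5 ± 0.17, limma adjusted p = 4.08e-06). Mir221 read 4.21, 4.23 and 4.39 against 6.98, 7.20 and 6.97 (-2.77 ± 0.10, adjusted p = 1.29e-11), and its neighbour Mir222, under 2-fold, was lower too (-0.95 ± 0.27, adjusted p = 0.0114). Mir202 was higher (1.34 ± 0.21, adjusted p = 9.95e-05). The mature sequences of Mir155, Mir221 and Mir222 are printed 5′ to 3′ from RefSeq, build GRCm38.p6, with the seed in capitals, which Mir221 and Mir222 share.
mmu-miR-155-5p: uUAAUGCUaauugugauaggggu
mmu-miR-221-3p: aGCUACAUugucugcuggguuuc
mmu-miR-222-3p: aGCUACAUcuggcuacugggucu

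Of 12146 probe sets with no gene symbol 1865 (15.4%) were called. Of these, 365 were at least 2-fold higher and 288 at least 2-fold lower in GM-DC. Of 1621 probe sets with several symbols 426 (26.3%) were called. Both shares lay below that of probe sets with a single gene symbol, of which 6968 of 21789 (32%) were called. Among those, 1218 were at least 2-fold higher and 1478 at least 2-fold lower in GM-DC.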
